A study of Mus musculus with 6 samples.

Results

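The genes described here carry out or control the oxidation of fatty acids in mitochondria and peroxisomes. They were given by name as a list of 38 genes, chosen as a pathway and not by a rule on measured values, though with earlier results of these data known. All 38 were found among the 28208 genes shared by the 6 count matrices of the series. The series held single-cell RNA sequencing of 6 mouse kidneys. Naive kidneys (n = 2) were untransplanted kidneys of C57BL/6 (B6) mice aged 10 to 12 weeks. Rejecting kidneys (n = 2) were BALB/c kidneys from donors aged 6 to 7 weeks placed in B6 recipients whose own kidneys had been removed, with no treatment, and tolerized kidneys (n = 2) were the same kind of graft in recipients given infusions of BALB/c splenocytes fixed with ethylenecarbodiimide (ECDI-SP). Grafts were taken on day 15 after transplantation. A graft holds donor tubules together with blood-borne cells of the recipient. Naive and grafted kidneys therefore differed in strain, age, transplantation and, as the matrices show, in their gene list, so that these cannot be told apart in any comparison with naive kidneys. The tolerized and rejecting kidneys shared strain, age, day and gene list, and their comparison addresses the infusions. Nothing in the labels says whether the kidneys of a group were processed separately. Unless kidneys were left out, p-values rest on a spread within groups that was estimated over all 6 kidneys together. With 2 kidneys per group, they cover the differences between these kidneys only.

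Cells of the proximal tubule draw most of their energy from fatty acids. A fatty acid is joined to coenzyme A, passed into mitochondria by way of carnitine, and shortened there in repeated rounds of dehydrogenation, hydration, a further dehydrogenation and thiolysis, while the electron transfer flavoprotein hands the electrons on to the respiratory chain. Peroxisomes shorten very long chains by a parallel route that releases hydrogen peroxide, which catalase breaks down, and cytochromes of the Cyp4a family oxidize the far (omega) end of the chain. The nuclear receptor PPARα, encoded by Ppara, with its co-activator PGC-1α, encoded by Ppargc1a, is known to turn on many of these genes.

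The matrices held 8532 to 13378 barcodes and 34874702 to 96803926 unique molecular identifiers (UMIs, each standing for 1 captured RNA molecule) per kidney. After filters, 49797 cells, called doublets included, were clustered without the 38 genes. Called doublets were then removed, which left 45667 cells, and clusters were named from marker genes. Proximal tubule-like cells were the most numerous tubular class (18709 cells, 1171 to 4863 per kidney), followed by distal convoluted tubule-like (3170), loop of Henle-like (2052) and collecting duct-like cells (1456). The list of 17 proximal tubule markers summed to 38232 to 74454 counts per 1000000 UMIs (CPM) in every kidney's proximal tubule-like cells. This sum depends strongly on Kap, which ran from 3855 to 116040 CPM across their clusters. In the test described below, 5 of the 17 fell and 1 rose in rejecting versus naive kidneys, where 18.7% of all genes fell and 22.5% rose. In tolerized kidneys 2 fell and 0 rose, where 14.6% of all genes fell and 16.5% rose. Median UMIs per proximal tubule-like cell were 3298 and 3377.5 (naive), 3093.5 and 4290 (rejecting) and 7083 and 11197 (tolerized), and their median share of mitochondrial UMIs was 24.75% to 25.36% in naive and 14.97% to 21.59% in grafted kidneys. Kept cells of different kidneys shared 0 to 56 barcodes. Proximal tubule-like clusters divided almost wholly into clusters of naive cells and clusters of grafted cells, and 952 of the 996 cells of cluster 14, which had a median of 982.5 UMIs, came from rejecting replicate 1. The labels give all kidneys as male, and Ddx3y of the Y chromosome stood at 37.5 to 45.6 CPM in the proximal tubule-like cells of all 6.

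In proximal tubule-like cells, the largest decreases among the members called in both comparisons with naive kidneys were those of Cyp4a31, Cat, Acsm3, Slc25a20 and Etfa, and the largest increases were those of Pdk4 and Ppara. In rejecting versus naive kidneys 12 members fell (31.6% of 38, where 18.7% of the 12773 genes tested fell) and 4 rose (10.5%, where 22.5% of all genes rose). In tolerized versus naive kidneys 7 fell (18.4%, against 14.6% of all genes) and 4 rose (10.5%, against 16.5%). The median member changed by -0.35 (log2) in rejecting and by -0.10 in tolerized kidneys, while the median of all genes tested stood at 0.07 and 0.06. All 38 passed the filter on low counts. Counts were summed per kidney and tested by edgeR's quasi-likelihood test with Benjamini-Hochberg adjustment over all genes tested, at an adjusted p of 0.05. Levels below are CPM after scaling by the trimmed mean of M values, so they compare a gene between kidneys and not 1 gene with another. In each sentence of levels the values are given as replicate 1 and replicate 2.

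**Figure D1:**
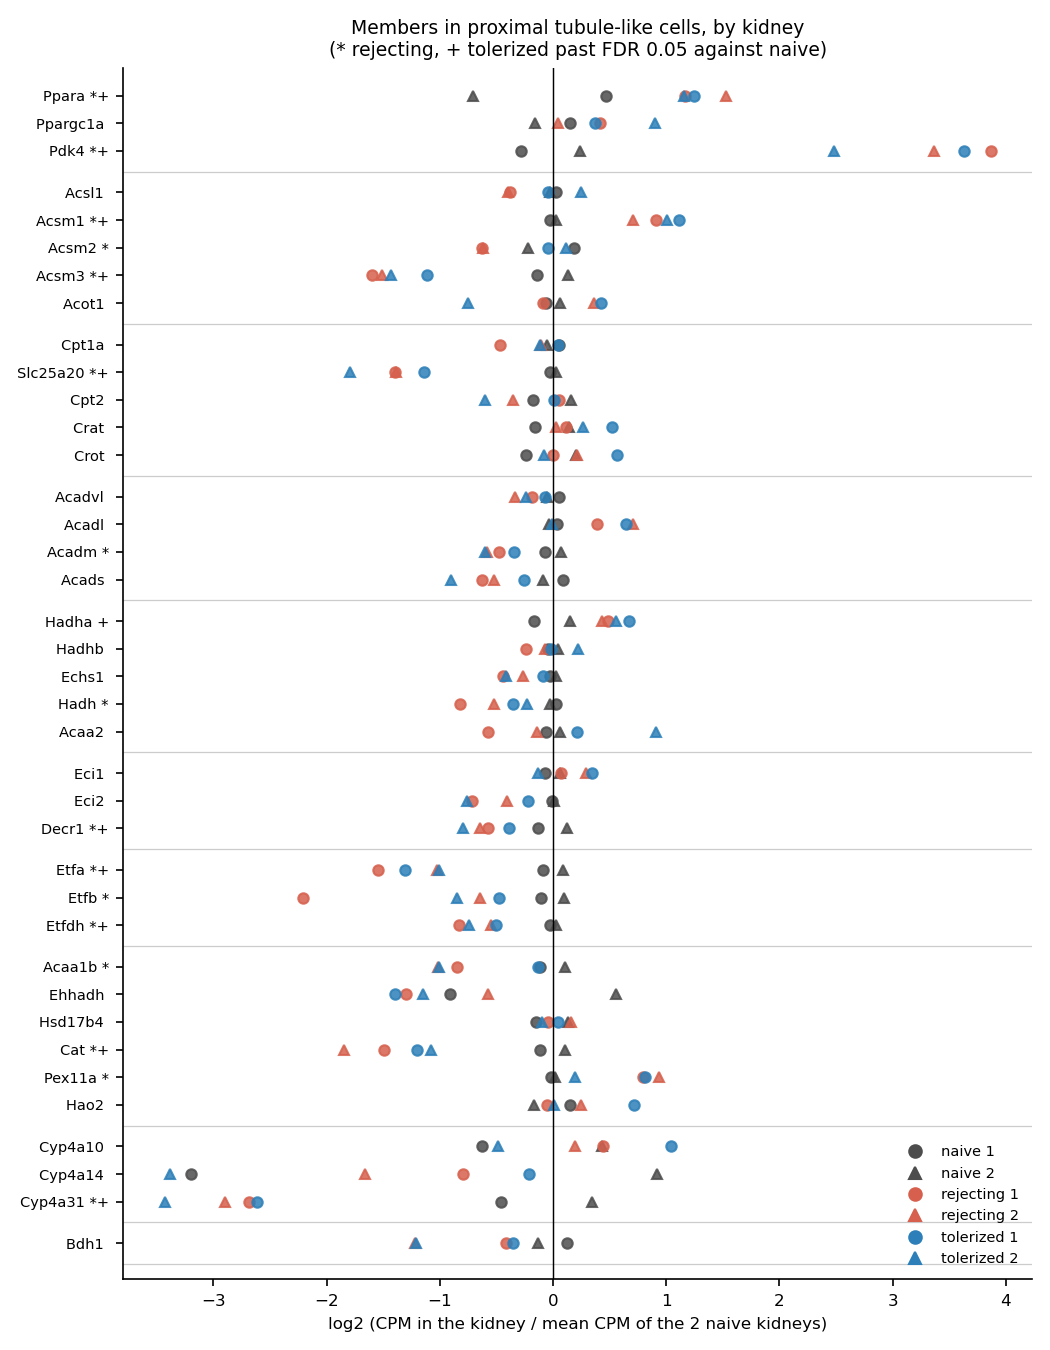
Level of each of the 38 genes in proximal tubule-like cells, as log2 of the kidney's CPM over the mean CPM of the naive kidneys (x axis), with genes grouped by role (y axis), 1 point per kidney, colours for groups, shapes for replicates, and * (rejecting) or + (tolerized) beside genes past an adjusted p of 0.05 against naive kidneys. Pdk4 lies far above the naive kidneys in all 4 grafts, Cyp4a31 and Cat lie below them in all 4, and Etfb in rejecting replicate 1 lies apart from the other grafts.

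Among the regulators, Pdk4, the kinase that shuts off pyruvate dehydrogenase and so spares glucose, stood at 4.49 and 6.46 CPM (naive), 79.9 and 56.5 (rejecting) and 67.9 and 30.6 CPM (tolerized). All 4 grafts were above both naive kidneys, and the rejecting and tolerized kidneys overlapped. Pdk4 was 12.6-fold higher in rejecting (log2 fold change 3.65, SE 0.412, adjusted p = 0.000459) and 9.06-fold higher in tolerized kidneys (3.18, SE 0.404, adjusted p = 0.00104). Ppara was at 20.8 and 9.21 CPM (naive), 33.7 and 43.4 (rejecting) and 35.7 and 33.5 CPM (tolerized). It was above both naive kidneys in every graft, by 1.34 (SE 0.332, adjusted p = 0.0133) in rejecting and 1.19 (SE 0.327, adjusted p = 0.0264) in tolerized kidneys on the log2 scale. Ppargc1a was at 50.9 and 41.1 CPM (naive), 61.1 and 47.3 (rejecting) and 59.5 and 85.6 CPM (tolerized). It passed the test in neither comparison, with log2 fold changes of 0.24 (95% interval -0.28 to 0.77) and 0.66 (0.14 to 1.18, adjusted p = 0.0588). Of the regulators, then, Pdk4 and Ppara rose in both kinds of graft.

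The Pdk4 UMIs of the grafts were concentrated in few cells. Clusters 6 and 30, which held 18.9% to 25.2% of the proximal tubule-like cells of each grafted kidney and none of the naive ones, held 94.5% to 97.7% of the grafts' Pdk4 UMIs. Within these clusters Pdk4 stood at 203.8 and 179.5 CPM in rejecting and 196.8 and 104.1 CPM in tolerized kidneys (unscaled CPM). In all other proximal tubule-like cells of the grafts it stood at 2.19 to 5.67 CPM. The naive kidneys stood at 3.75 and 5.61 CPM over the whole class, and there too the UMIs were unevenly spread, with 59 of 79 and 67 of 87 in cluster 9, which held 15.8% and 18.3% of the naive proximal tubule-like cells. Pdk4 stood at 10.4 and 16.5 CPM in that cluster and at 1.30 and 1.75 CPM in all other naive cells. Clusters 6, 9 and 30 were formed without Pdk4, and they were singled out after these values were seen. Clusters 6 and 30 differed from each other, since cluster 6 had a median of 15497 UMIs and 12.0% mitochondrial UMIs per cell and cluster 30 had 2618.5 UMIs and 4.97%. Ppara was also high in them, at 52.8 and 71.6 CPM, and Ppargc1a was at 92.3 and 180 CPM. High Ppargc1a was not particular to them. Cluster 21 of the grafts had Ppargc1a at 112 and Ppara at 41.9 CPM with Pdk4 at 3.12 CPM. Naive cluster 15 had Ppargc1a at 80.7 CPM with Pdk4 at 2.01 CPM.

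**Figure D2:**
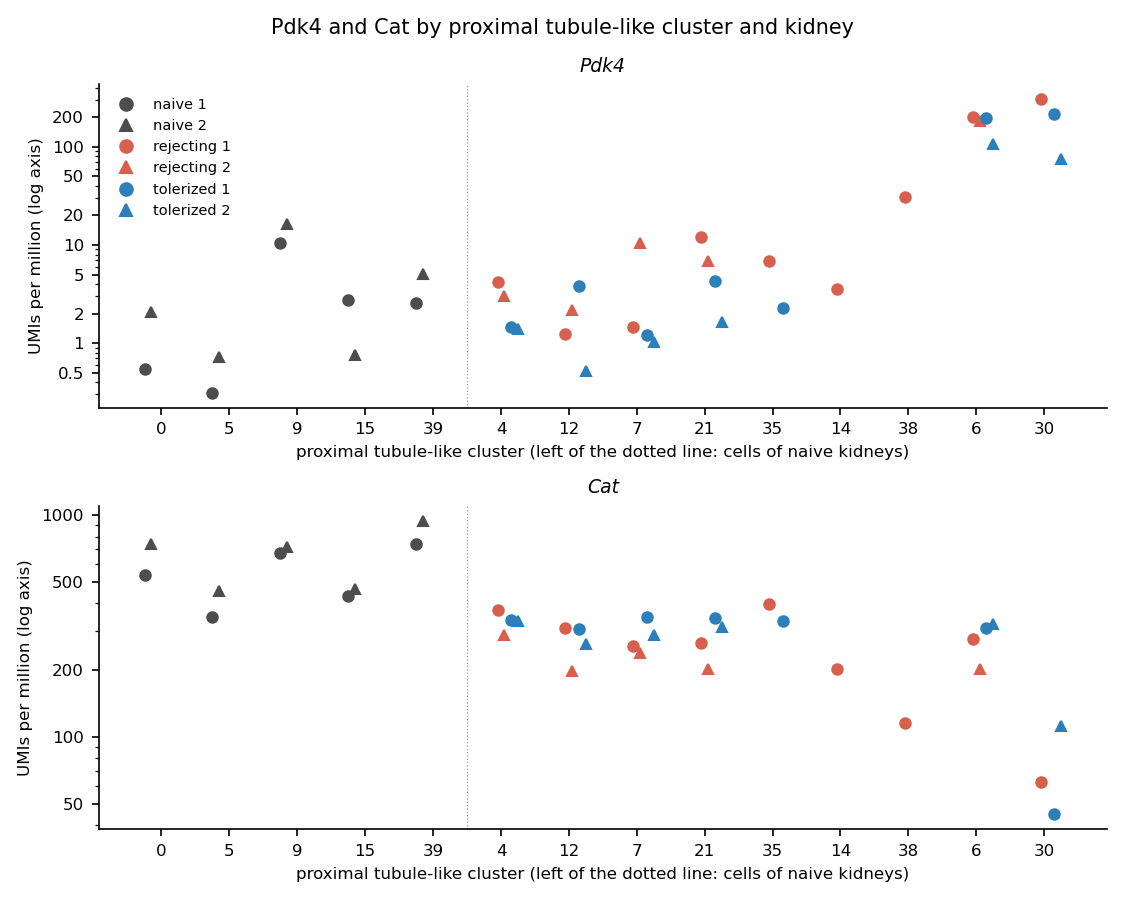
Unscaled CPM of Pdk4 (upper panel) and Cat (lower panel), on log axes, in each proximal tubule-like cluster (x axis), with 1 point for each kidney that had at least 50 cells in the cluster; clusters of naive cells lie left of the dotted line. Pdk4 is high in clusters 6 and 30 of the grafts, and Cat is lower in nearly all grafted than naive points and lowest in cluster 30.

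Of the enzymes that activate fatty acids, the medium-chain acyl-CoA synthetases of the Acsm family changed in different directions, although Acsm1, Acsm2 and Acsm3 lie side by side on chromosome 7 (Acsm2 at chr7:119554340-119600690, Acsm1 at chr7:119607026-119662515 and Acsm3 at chr7:119760923-119787513, GRCm38, all on the + strand). Acsm1 was at 106 and 110 CPM (naive), 203 and 176 (rejecting) and 233 and 216 CPM (tolerized). It rose by 0.82 (SE 0.159, adjusted p = 0.00508) and 1.06 (SE 0.159, adjusted p = 0.00225). Acsm3 was at 190 and 229 CPM (naive), 68.9 and 73.4 (rejecting) and 96.7 and 77.8 CPM (tolerized), a log2 change of -1.56 (SE 0.183, adjusted p = 0.00056) and -1.26 (SE 0.181, adjusted p = 0.00178). Acsm3 was highest in the S3-like clusters 35 and 39 (622 and 583 unscaled CPM), which stand for the last part of the proximal tubule, and its direction depended on which cells were compared. With S3-like clusters alone it was higher in grafts, by 1.14 in rejecting and 1.22 in tolerized kidneys, but these compared different clusters. The S3-like cells of the naive kidneys (2267 and 1671) were in cluster 0 to 95.5% and 91.9%, while those of the grafts (58 and 29 in rejecting, 169 and 23 in tolerized kidneys) were in cluster 35 to 95.7% or more. Acsm3 was at 204 and 253 unscaled CPM in cluster 0, at 517 and 629 CPM in naive cluster 39, and at 704 and 546 CPM in cluster 35 of rejecting replicate 1 and tolerized replicate 1. Acsm2, the member with the most UMIs, was at 2795 and 2110 CPM (naive), 1585 and 1594 (rejecting) and 2379 and 2657 CPM (tolerized). Acsm2 fell in rejecting kidneys (-0.63, SE 0.202, adjusted p = 0.0373), a call that was lost among cells with at most 20% mitochondrial UMIs (-0.16, adjusted p = 0.513) and with a replicate block (-0.62, adjusted p = 0.0576). The tolerized kidneys overlapped the naive ones for Acsm2 (0.04, 95% interval -0.42 to 0.50). Acsl1, which activates long chains, and Acot1, a thioesterase that reverses activation, did not pass the test in either comparison.

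In the carnitine shuttle, Slc25a20, the carrier that exchanges acylcarnitine for carnitine across the inner mitochondrial membrane, was at 43.2 and 44.6 CPM (naive), 16.7 and 16.7 (rejecting) and 19.9 and 12.7 CPM (tolerized). All 4 grafts were below both naive kidneys, by -1.39 (SE 0.224, adjusted p = 0.00223) and -1.43 (SE 0.218, adjusted p = 0.00237). The other 4 members of the shuttle did not pass the test in either comparison. Cpt1a, whose product sits at the entry to mitochondria and is regarded as the rate-limiting step, ranged from 63.4 to 90.9 CPM over the 6 kidneys, with log2 fold changes of -0.28 (95% interval -0.69 to 0.13) in rejecting and -0.03 (-0.44 to 0.37) in tolerized kidneys. Cpt2 (inner membrane), Crat (acetyl groups) and Crot (peroxisomal medium chains) had log2 fold changes between -0.26 and 0.40.

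The acyl-CoA dehydrogenases catalyse the opening step of each round. Acadm, for medium chains, was at 540 and 595 CPM (naive), 407 and 378 (rejecting) and 447 and 374 CPM (tolerized). Acadm fell by 0.53 on the log2 scale in rejecting kidneys (SE 0.171, adjusted p = 0.0369) and missed the threshold in tolerized kidneys (-0.47, adjusted p = 0.0694). The Acadm call was lost with S1/S2-like clusters alone (-0.43, adjusted p = 0.0631) and with a replicate block (-0.54, adjusted p = 0.0559). With S3-like clusters alone Acadm was higher in grafts, by 1.38 and 1.25, where it was at 572 and 610 unscaled CPM in cluster 0, at 1313 and 1688 CPM in naive cluster 39, and at 2058 and 1766 CPM in cluster 35 of rejecting replicate 1 and tolerized replicate 1. Acadl (long chains), Acadvl (very long chains) and Acads (short chains) did not pass, with log2 fold changes from -0.57 for Acads to 0.56 for Acadl in rejecting kidneys. Of the mitochondrial enzymes that follow, Hadh, the short-chain hydroxyacyl-CoA dehydrogenase, was at 403 and 390 CPM (naive), 225 and 277 (rejecting) and 310 and 338 CPM (tolerized), with a fall in rejecting kidneys (-0.66, SE 0.172, adjusted p = 0.0163). Hadha, the alpha subunit of the trifunctional protein, was at 54.0 and 67.7 CPM (naive), 84.97 and 81.9 (rejecting) and 97.1 and 89.3 CPM (tolerized), and it rose in tolerized kidneys (0.62, SE 0.169, adjusted p = 0.0267) and missed the threshold in rejecting kidneys (0.46, adjusted p = 0.0609). Hadhb, the beta subunit of the same enzyme, passed in neither comparison (-0.15 and 0.11), with 35.4% of the 50-base stretches at its transcript ends shared with Gm13910 and Gm9108. Echs1, the hydratase, and Acaa2, the thiolase, passed in neither comparison.

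For unsaturated chains, Decr1, the dienoyl-CoA reductase, was at 151 and 180 CPM (naive), 111 and 106 (rejecting) and 126 and 95.01 CPM (tolerized). It fell in both comparisons (-0.61, adjusted p = 0.0321, and -0.58, adjusted p = 0.0471), although 6 and 10 of 18 alternatives lost these calls, while the isomerases Eci1 and Eci2 passed in neither.

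The 3 members of electron transfer passed the test in rejecting kidneys, Etfb narrowly. Etfa, the alpha subunit of the flavoprotein, was at 405 and 458 CPM (naive), 148 and 212 (rejecting) and 174 and 215 CPM (tolerized). It was lower in all 4 grafts than in both naive kidneys, by -1.26 (SE 0.217, adjusted p = 0.00301) and -1.15 (SE 0.216, adjusted p = 0.00596). Etfdh, which passes the electrons to ubiquinone, was at 62.2 and 64.7 CPM (naive), 35.7 and 43.4 (rejecting) and 44.8 and 37.9 CPM (tolerized), a change of -0.68 (SE 0.175, adjusted p = 0.0153) and -0.62 (SE 0.173, adjusted p = 0.0289). Etfb, the beta subunit, was at 1048 and 1211 CPM (naive), 244 and 723 (rejecting) and 813 and 628 CPM (tolerized). Its decrease in rejecting kidneys was 1.22 on the log2 scale (SE 0.425, adjusted p = 0.0481), and without rejecting replicate 1 the change was -0.64 (adjusted p = 0.0801). The Etfb call was also lost without either naive kidney (adjusted p = 0.100 and 0.150), without tolerized replicate 1 (0.0515), with the 2 groups alone (0.0591), with S1/S2-like clusters alone (0.0843) and with DESeq2 (0.0927). Etfb was low in that kidney in every class measured, at 36.9 against 123 unscaled CPM in rejecting replicate 2 in macrophage/monocyte-like cells and at 44.1 against 126 CPM in T cell-like cells. Of the 50-base stretches at the ends of its transcripts, 58.1% were shared with Gm45233, so its counts are uncertain.

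Among the peroxisomal members, Cat, the gene of catalase (chr2:103453849-103485160, GRCm38), was at 631 and 739 CPM (naive), 244 and 191 (rejecting) and 298 and 324 CPM (tolerized). None of the 3 groups overlapped another, with naive kidneys highest and rejecting kidneys lowest. Cat was 3.15-fold lower in rejecting (log2 fold change -1.66, SE 0.191, adjusted p = 0.000502) and 2.20-fold lower in tolerized than in naive kidneys (-1.14, SE 0.188, adjusted p = 0.00348). Cluster by cluster, counting each kidney with at least 50 cells, Cat ranged from 346 to 944 unscaled CPM in 10 values from naive kidneys and from 44.7 to 398 CPM in 27 values from grafts. The clusters were thus almost apart for Cat, with a small overlap between 346 and 398 CPM. Acaa1b, a peroxisomal thiolase, was at 350 and 410 CPM (naive), 211 and 188 (rejecting) and 348 and 189 CPM (tolerized), with a fall in rejecting kidneys (-0.93, SE 0.273, adjusted p = 0.0265). Its transcript ends shared 38.8% of their 50-base stretches with Acaa1a, which makes its counts uncertain. Pex11a, which promotes the division of peroxisomes, went the other way, at 37.9 and 38.9 CPM (naive), 66.6 and 73.4 (rejecting) and 67.5 and 44.0 CPM (tolerized). Pex11a rose in rejecting kidneys (0.87, SE 0.217, adjusted p = 0.0142) and missed the threshold in tolerized kidneys (0.54, adjusted p = 0.0903). Ehhadh and Hsd17b4, the bifunctional enzymes of peroxisomal oxidation, and Hao2, a hydroxyacid oxidase, did not pass in either comparison. Ehhadh had 76.9 and 213 CPM in the naive kidneys, and its log2 fold changes of -0.90 and -1.27 had 95% intervals of -1.88 to 0.08 and -2.25 to -0.29.

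Of the omega-hydroxylases, which are encoded side by side on chromosome 4, Cyp4a31 (chr4:115563649-115579015, GRCm38) was at 110 and 193 CPM (naive), 23.6 and 20.4 (rejecting) and 24.8 and 14.1 CPM (tolerized). It was 6.87-fold lower in rejecting (-2.78, SE 0.344, adjusted p = 0.000701) and 7.79-fold lower in tolerized kidneys (-2.96, SE 0.342, adjusted p = 0.000651), and 15.5% of the 50-base stretches at its transcript ends were shared with Cyp4a32 and Cyp4a10. Its neighbours Cyp4a10 and Cyp4a14 did not pass and varied widely within groups, Cyp4a14 from 3.07 to 53.4 CPM between the naive kidneys. Bdh1, which interconverts the ketone bodies, was lower in all 4 grafts than in both naive kidneys but passed in neither comparison (-0.75, adjusted p = 0.100, and -0.72, adjusted p = 0.123).

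With each kidney left out in turn, 6 of the 16 calls in rejecting versus naive kidneys were made in every fit, those of Pdk4, Acsm3, Slc25a20, Etfa, Cat and Cyp4a31, and 7 of the 11 in tolerized versus naive kidneys, those of the same 6 genes and Acsm1. Without naive replicate 1 the counts of members called were 8 and 9, and without naive replicate 2 they were 9 and 7. Without rejecting replicate 1 there were 9 calls against naive kidneys, and without rejecting replicate 2 there were 10. Of the calls lost, Acsm2 in rejecting kidneys was -0.43 (adjusted p = 0.241) without naive replicate 1. Ppara missed the threshold in rejecting kidneys without replicate 2 of that group (1.15, adjusted p = 0.0657) and in tolerized kidneys without naive replicate 2 (0.73, adjusted p = 0.100), without tolerized replicate 1 (1.15, adjusted p = 0.0733) or without tolerized replicate 2 (1.24, adjusted p = 0.0605), as well as among cells with at most 20% mitochondrial UMIs (0.85, adjusted p = 0.0919). Acsm1 in rejecting kidneys missed it without naive replicate 1 (0.77, adjusted p = 0.0525), and so did Pex11a (0.83, adjusted p = 0.0845). Acadm, Hadh, Decr1, Etfdh, Acaa1b and Hadha each lost their call without either naive kidney, with adjusted p between 0.060 and 0.257. In rejecting versus naive kidneys, Acsm2, Acadm, Decr1 and Acaa1b also lost it without either rejecting kidney, Hadh and Etfdh without rejecting replicate 1, and Pex11a without naive replicate 2 or rejecting replicate 2, with adjusted p between 0.0579 and 0.106. In tolerized versus naive kidneys, Hadha lost it without either tolerized kidney (0.0946 and 0.0587), Etfdh without tolerized replicate 2 (0.133), and Decr1 without tolerized replicate 2 (0.213) or without either rejecting kidney (0.062 and 0.0609).

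Markers of injury, of the S3 part and of other cells also differed between groups, some lists rising and some falling. The 10 markers of injured tubules summed, in proximal tubule-like cells, to 394 and 383 unscaled CPM (naive), 1417 and 3047 (rejecting) and 1790 and 1757 CPM (tolerized), most of it Spp1, and 6 of the 8 tested rose in rejecting and 5 in tolerized kidneys. The 12 T cell markers summed to 1.38 and 1.42 CPM (naive), 196 and 40.7 (rejecting) and 19.6 and 15.4 CPM (tolerized), with Cd4 at 0 in both naive kidneys. The 16 macrophage/monocyte markers summed to 112 and 119 CPM (naive), 1015 and 480 (rejecting) and 310 and 176 CPM (tolerized). The 17 collecting duct markers summed to 124 and 129 CPM (naive), 69.3 and 30.8 (rejecting) and 34.2 and 69.4 CPM (tolerized). Of the 15 tested, 5 fell and 0 rose in each comparison. Sums of the 10 distal convoluted tubule markers were 161 and 160, 121 and 97.1, and 87.3 and 107 CPM. Of the 9 tested, 3 fell in rejecting and 4 in tolerized kidneys, and 1 rose in each. The 9 markers of the S3 part of the tubule summed to 1275 and 1347 CPM (naive), 959 and 851 (rejecting) and 1118 and 535 CPM (tolerized). The part of these in the differences of the 38 genes was not tested. Summed over the members, the level was 7861 and 8357 unscaled CPM (naive), 7085 and 7893 (rejecting) and 9251 and 7391 CPM (tolerized). The groups overlapped in this sum, of which Acsm2 made up 21.9% to 34.1%. The overlap depended on mitochondrially encoded genes, which held 26.7% and 24.8% of the UMIs in naive and 17.4% and 17.6% in rejecting kidneys. Without them both rejecting kidneys (8579 and 9575 CPM) were below both naive (10720 and 11110) and both tolerized kidneys (10977 and 9770).

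Promoter sequences are shown for the members whose RefSeq promoter held a near match to the element bound by PPARα and its partner RXR, since 3 of these 4 genes (Cat, Etfa and Slc25a20) were among those lower in both kinds of graft and the other (Echs1) was not called. The motif searched was AGGTCANAGGTCA, that is, 2 copies of AGGTCA spaced by 1 base of any kind, on both strands. Promoters were windows of 300 bases, from 250 before to 50 after the start of transcription, in RefSeq's GRCm38.p6, and 31 of the 38 members had one, with 34 windows in all. No window of a member held the exact motif, which 0.0396% of all 32851 windows held. With up to 2 mismatches 4 of 34 windows (11.8%) held it, against 3.86% of all windows, and AGGTCA alone was in 17.6% against 16.3%. A match of this kind describes the letters only. Each sequence below runs 5′ to 3′ along the gene's strand and stops where the annotated gene begins, except for Slc25a20, where only the 30 bases around the match are given. Capitals mark the 13-base match, which starts at -204 relative to the start of transcription in Cat, -83 in Echs1, -77 in Etfa (on the opposite strand) and 6 in Slc25a20.
Cat, chr2:103485161-103485403, - strand: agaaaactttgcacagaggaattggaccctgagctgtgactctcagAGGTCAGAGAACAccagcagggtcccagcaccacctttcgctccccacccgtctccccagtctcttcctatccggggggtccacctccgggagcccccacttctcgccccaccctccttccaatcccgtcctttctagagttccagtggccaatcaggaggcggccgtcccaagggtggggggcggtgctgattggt
Etfa, chr9:55512244-55512493, - strand: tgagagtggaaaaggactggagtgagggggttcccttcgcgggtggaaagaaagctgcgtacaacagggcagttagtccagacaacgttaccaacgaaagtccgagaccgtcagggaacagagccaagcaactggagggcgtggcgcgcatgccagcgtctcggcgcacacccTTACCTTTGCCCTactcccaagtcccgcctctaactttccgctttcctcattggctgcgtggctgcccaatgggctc
Slc25a20, chr9:108662134-108662163, + strand: ctgaatgtAGGTGAAAGGTCGgcggagccg
Echs1, chr7:140116477-140116671, - strand: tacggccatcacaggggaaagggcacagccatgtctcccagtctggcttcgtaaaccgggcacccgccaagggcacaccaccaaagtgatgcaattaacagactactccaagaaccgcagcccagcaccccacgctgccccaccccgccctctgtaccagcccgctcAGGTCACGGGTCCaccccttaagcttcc
Acaa2, Decr1, Cyp4a31, Crat, Cyp4a10, Cyp4a14 and Hsd17b4 had no entry in the promoter table used.

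Between tolerized and rejecting kidneys no member passed the test in proximal tubule-like cells. Neither did any of the 12773 genes by edgeR (0% higher and 0% lower), where 1524 genes and 4 members, Acaa2, Acsm2, Cat and Acsl1, had an unadjusted p under 0.05. In 10 members both tolerized kidneys were above both rejecting kidneys (26.3%, where 19.5% of all genes were), and in none were they below (where 20.6% of all genes were). The 95% interval of the log2 fold change lay between -1 and 1 for 30 of the 38 members, and the median distance from estimate to bound was 0.49. DESeq2 called 2 of them, Acsm2 and Acaa2, among 268 genes in all.

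**Figure D3:**
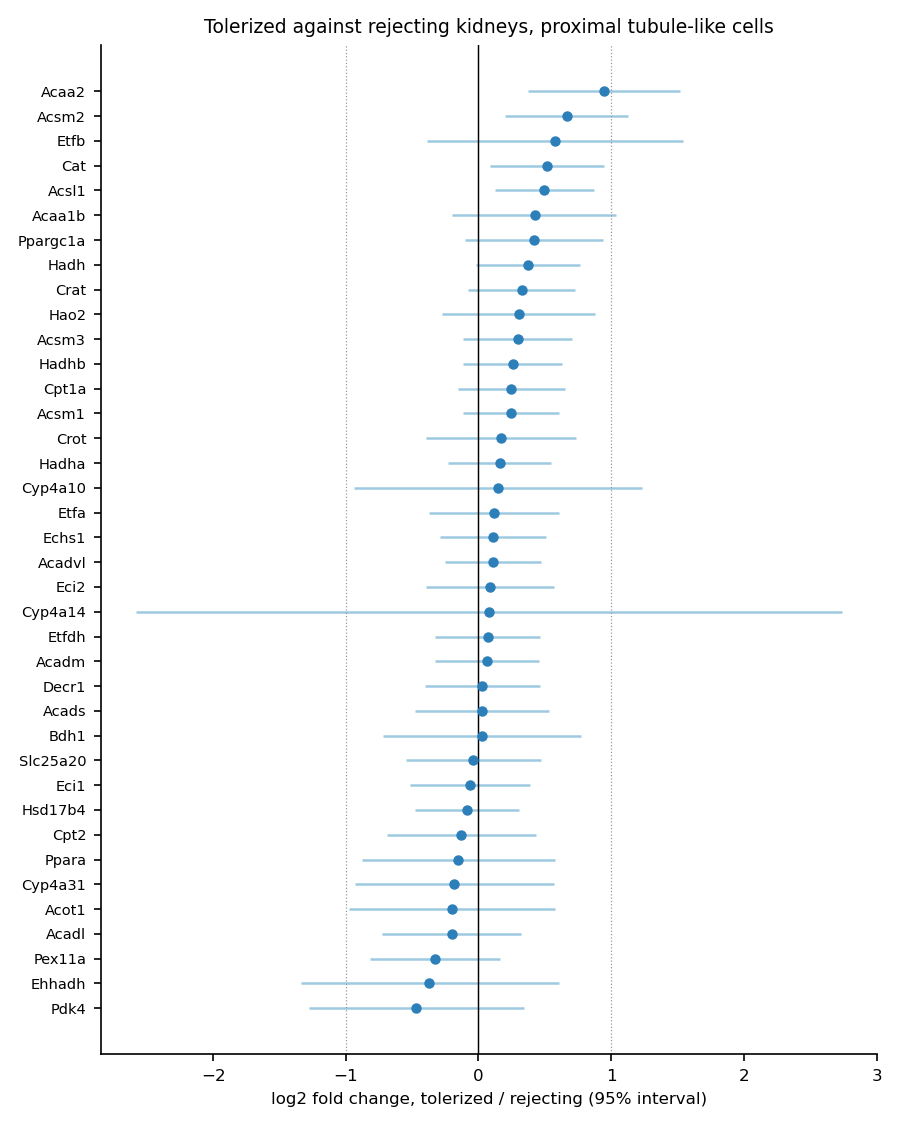
Points give each member's log2 fold change of tolerized over rejecting kidneys (x axis) in proximal tubule-like cells, ordered by size (y axis), bars give its 95% interval from the edgeR fit, and dotted lines mark -1 and 1. Acaa2 has the highest value, 0.95 with an interval of 0.37 to 1.52, and none of the 38 passed the test.

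Acaa2, the thiolase that ends each mitochondrial round, was at 151 and 202 CPM in rejecting and 260 and 419 CPM in tolerized kidneys, against 214 and 233 CPM in naive kidneys. The tolerized kidneys were 1.93-fold higher than the rejecting ones (log2 fold change 0.95, SE 0.251, adjusted p = 0.204). Acsm2 was 1.58-fold higher in tolerized kidneys (0.66, 95% interval 0.20 to 1.13, adjusted p = 0.244), Cat was 1.43-fold higher (0.52, 0.09 to 0.94, adjusted p = 0.314) and Acsl1 was 1.41-fold higher (0.50, 0.12 to 0.87, adjusted p = 0.274), with 64.5 and 63.7 CPM in rejecting and 81.5 and 99.6 CPM in tolerized kidneys. For the other 4 of the 8 members with the largest differences among those without overlap the intervals included 0. These were Hadh (0.37, -0.02 to 0.76), Crat (0.32, -0.08 to 0.73), Acsm3 (0.30, -0.12 to 0.71) and Hadhb (0.26, -0.12 to 0.63). Crat was at 40.2 and 37.8 CPM in rejecting and 53.2 and 44.5 CPM in tolerized kidneys, and Hadhb was at 95.5 and 107 CPM in rejecting and 111 and 131 CPM in tolerized kidneys.

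The level of Acaa2 differed more between clusters than between groups. It ran from 13.0 CPM in S3-like cluster 35 to 674 CPM in cluster 7, and clusters 7 and 21, where it was high, together with low Acsm3, held 4.96% and 3.92% of the proximal tubule-like cells of rejecting replicate 1, 21.4% and 5.55% of those of rejecting replicate 2, 18.8% and 5.24% in tolerized replicate 1, and 27.3% and 20.5% in tolerized replicate 2. In 5 clusters with at least 50 cells in each of the 4 grafts (4, 6, 7, 12 and 21), a comparison made after the values were seen, both tolerized kidneys were above both rejecting kidneys for Acaa2 and for Acsm2 in all 5. In cluster 7, for example, Acaa2 was at 522 and 496 CPM in rejecting and 812 and 634 CPM in tolerized kidneys, and in cluster 12 Acsm2 was at 1566 and 1613 CPM in rejecting and 2428 and 2449 CPM in tolerized kidneys. Cat was so in 3 of the 5. Hsd17b4, a peroxisomal bifunctional enzyme, was lower in both tolerized kidneys in 4 of the 5, and Pdk4 and Pex11a were in 3. These counts are a description of the same 4 kidneys and carry no test. The share of all genes that went so in each cluster was not computed. Over the whole class, both tolerized kidneys were above both rejecting kidneys in 19.5% of all genes and below them in 20.6%. How unusual the counts are thus cannot be said.

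In the other tubular segments fewer members passed against naive kidneys, and so did fewer genes of any kind. In rejecting versus naive kidneys 5262 of 12773 genes were called in proximal tubule-like cells. There were 1586 of 10114 in loop of Henle-like, 2526 of 10385 in distal convoluted tubule-like and 2126 of 10801 in collecting duct-like cells. In tolerized versus naive kidneys the calls were 3970, 1023, 2265 and 1952. Shares of members and of all genes are given below. Cat was lower in all 4 segments in both kinds of graft, and Acadl, the long-chain dehydrogenase, passed the test with higher values in both kinds of graft in each segment other than the proximal tubule. In proximal tubule-like cells its changes had the same direction (0.56 and 0.35). The within-kidney test described below did not call them different from those in loop of Henle-like (adjusted p = 0.0524 and 0.0508) or distal convoluted tubule-like cells (0.331 and 0.247). In distal convoluted tubule-like cells Cat was at 139 and 154 CPM (naive), 33.6 and 38.3 (rejecting) and 51.8 and 43.9 CPM (tolerized) (-2.02, adjusted p = 3.71e-05, and -1.62, adjusted p = 0.000109). In loop of Henle-like cells it was at 88.8 and 116 CPM (naive), 34.0 and 30.2 (rejecting) and 42.6 and 51.0 CPM (tolerized), and in collecting duct-like cells it was at 123 and 151, 51.0 and 28.7, and 40.02 and 39.7 CPM. Acadl was at 113 and 161 CPM (naive), 284 and 404 (rejecting) and 322 and 281 CPM (tolerized) in loop of Henle-like cells (1.34, adjusted p = 0.00631, and 1.15, adjusted p = 0.0166). It was at 88.9 and 96.5, 198 and 190, and 159 and 178 CPM in collecting duct-like cells (1.06 and 0.86) and at 118 and 105, 174 and 259, and 215 and 154 CPM in distal convoluted tubule-like cells (0.96 and 0.72). No graft overlapped the naive kidneys for Cat or Acadl in these 3 segments. Several of these calls were lost under an alternative. In tolerized kidneys the call of Acadl in distal convoluted tubule-like cells (adjusted p = 0.046) was lost with DESeq2 (0.0592), with its size factors (0.0511), and without either naive kidney or tolerized replicate 1 (0.151, 0.267 and 0.265). The call of Acadl in tolerized kidneys was lost without either naive kidney also in loop of Henle-like (0.157 and 0.053) and collecting duct-like cells (0.0844 and 0.0637), and without tolerized replicate 1 (0.0957) and tolerized replicate 2 (0.0647) respectively. In rejecting kidneys it was lost without naive replicate 1 in loop of Henle-like cells (0.0806), and without either naive kidney or rejecting replicate 2 in distal convoluted tubule-like cells (0.0687, 0.118 and 0.0842). Cat in loop of Henle-like cells of tolerized kidneys lost its call without naive replicate 2 or tolerized replicate 1 (adjusted p of up to 0.0903), and its other calls in these 3 segments were made under every alternative.

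These classes, too, divided into clusters of naive and of grafted cells. In the loop of Henle-like class, cluster 27 held 88.3% and 90.4% of the naive cells and cluster 11 held 93.5% to 95% of the cells of the grafts. In the distal convoluted tubule-like class, cluster 13 held 99% and 99.8% of the naive cells, while the cells of the grafts lay in clusters 16, 26, 36 and 37 but for 0 to 12 cells per kidney. In the collecting duct-like class, cluster 23 held 78.2% and 90.8% of the naive cells and cluster 28 held 43.4% to 73.9% of the cells of the grafts. Nearly all the rest were in cluster 31, led by genes that include Foxi1 and Atp6v1g3 of intercalated cells, which held 20.1% and 8.21% (naive), 56.6% and 45.1% (rejecting) and 29.1% and 23.3% (tolerized). Within cluster 31, chosen after the values were seen, Cat was at 119 and 122 unscaled CPM (naive), 39.1 and 28.1 (rejecting) and 40.5 and 36.3 CPM (tolerized), and Acadl was at 97 and 86.6, 261 and 198, and 174 and 172 CPM. The grafts did not overlap the naive kidneys for Cat or Acadl within this cluster, with 33 to 95 cells per kidney. The part of cluster make-up in the differences within these classes, those of Cat and Acadl included, was not tested.

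**Figure D4:**
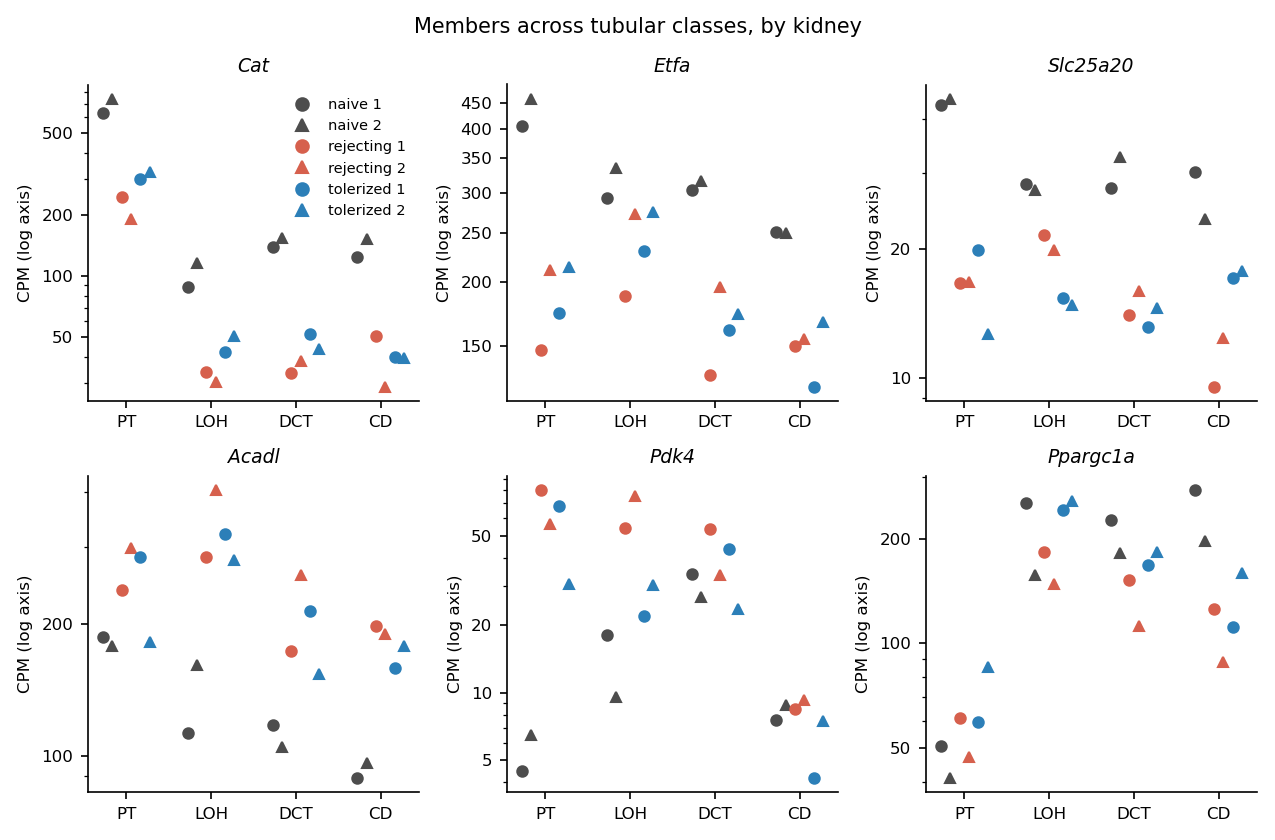
CPM (log axes) of Cat, Etfa, Slc25a20, Acadl, Pdk4 and Ppargc1a in proximal tubule-like (PT), loop of Henle-like (LOH), distal convoluted tubule-like (DCT) and collecting duct-like (CD) cells, with 1 point per kidney. Cat lies below both naive kidneys in all 4 classes of every graft, Acadl lies above them outside the PT class, and Pdk4 differs from naive mostly in PT and LOH cells.

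In loop of Henle-like cells 35 members were tested. In rejecting kidneys Pdk4, Acadl, Hadha and Eci1 rose (11.4%, against 8.66% of 10114 genes) and Acsm2 and Cat fell (5.71%, against 7.02%), and in tolerized kidneys Crat, Acadl, Hadha and Eci1 rose (11.4%, against 5.21%) and Acsm2, Slc25a20 and Cat fell (8.57%, against 4.9%). In distal convoluted tubule-like cells 37 members were tested. In rejecting kidneys Acadl and Eci1 rose (5.41%, against 13.1% of 10385 genes) and 11 fell (29.7%, against 11.2%), among them Ppargc1a, Slc25a20, Etfa, Etfb and Cat, and in tolerized kidneys Acadl rose (2.7%, against 12%) and 6 fell (16.2%, against 9.79%), among them Slc25a20, Etfa, Ehhadh and Cat. In collecting duct-like cells, with 35 members tested, Acadl rose in both comparisons (2.86%, against 11.1% and 9.86% of 10801 genes). There 7 members fell in rejecting kidneys (20%, against 8.63%), namely Ppargc1a, Cpt1a, Slc25a20, Etfa, Etfb, Ehhadh and Cat, and 8 fell in tolerized kidneys (22.9%, against 8.21%), namely Ppargc1a, Acsm2, Acsm3, Etfa, Ehhadh, Cat, Hao2 and Bdh1. Between tolerized and rejecting kidneys a single member passed, Acsm2 in distal convoluted tubule-like cells (2.40, adjusted p = 0.0241), where 0.0481% of genes were higher and 0.173% lower. In loop of Henle-like cells 0% were higher and 0.148% lower, and in collecting duct-like cells 0% and 0.00926%, with no member among them.

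RNA of proximal tubule markers was counted in the other classes too, and unequally between kidneys. Whether it was free RNA, or came from doublets left in or cells misplaced, was not tested, and it is called carried-over RNA below. The 17 proximal tubule markers stood in T cell-like cells, which do not make them, at 9.50% and 15.5% of their proximal tubule-like level in naive kidneys and at 0.617% to 3.99% in grafts, with 31 and 41 T cell-like cells in the naive kidneys. In distal convoluted tubule-like cells they stood at 4.98% and 9.31% in naive kidneys and at 0.367% to 2.67% in grafts. Acsm2 stood there at 4.88% and 9.77% of its proximal tubule-like level in naive kidneys and at 0.47% to 2.94% in grafts, and Acsm1 at 6.74% and 11%, and 0.223% to 3.10%. Acsm1, Acsm2, Acsm3, Hao2, Acaa1b, Cyp4a10 and Cyp4a31 in collecting duct-like and distal convoluted tubule-like cells, and Acsm2 in loop of Henle-like cells, stood at 2.97% to 12.6% of their proximal tubule-like level in naive kidneys, where the markers stood at 3.86% to 11.1% over the 3 segments. In the grafts' distal convoluted tubule-like cells Acsm3 (4.59% to 13%) and Acaa1b (4.07% to 6.74%) were above the markers. The part of carried-over RNA in the differences of these members there, the Acsm2 difference between tolerized and rejecting kidneys included, was not tested. Cyp4a31 had 0 UMIs in the distal convoluted tubule-like cells of both rejecting kidneys, which allows up to 0.734 CPM over the group, counting error only. In distal convoluted tubule-like cells Acadl, at 61.1% to 87.8% of its proximal tubule-like level, and Slc25a20, at 68.0% to 119%, were far above the share in all 6 kidneys, and Cat, at 23.7% and 21.6% in naive kidneys and 12.4% to 18.4% in grafts, was above it too. In loop of Henle-like cells Cat stood at 16.8% and 17.4% in naive kidneys, where the markers stood at 3.86% and 11.1%, and at 11.9% to 15.4% in grafts, and in collecting duct-like cells at 22.3% and 22.5%, where the markers stood at 4.7% and 6.5%, and at 12.6% to 18.4%. The part of carried-over RNA in the differences of Cat was not tested.

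The differences between segments were also tested within kidneys, in a fit with kidney as a block, as an analysis added after the data had been seen. The log2 change of Pdk4 against naive kidneys was larger in proximal tubule-like than in distal convoluted tubule-like cells, by 3.27 (SE 0.268, adjusted p = 1.02e-05) in rejecting and 3.07 (SE 0.256, adjusted p = 9.14e-06) in tolerized kidneys, and larger than in collecting duct-like cells, by 3.52 and 3.45. In the naive kidneys Pdk4 stood at 34.0 and 26.8 CPM in distal convoluted tubule-like cells, and at 53.7 and 33.6, and 43.7 and 23.7 CPM in the grafts. Ppargc1a went apart in the same way without being called in proximal tubule-like cells. In collecting duct-like cells it was at 275 and 197 CPM (naive), 125 and 88.6 (rejecting) and 112 and 159 CPM (tolerized), with differences from proximal tubule-like cells of 1.42 (SE 0.184, adjusted p = 0.00132) and 1.48 (SE 0.174, adjusted p = 0.000814), and in distal convoluted tubule-like cells the differences were 0.97 and 0.90. The clusters that made up these classes differed in Ppargc1a. In distal convoluted tubule-like cells it was at 203 and 164 unscaled CPM in naive cluster 13, at 37.2 to 81.1 CPM in cluster 16 of the grafts, and at 283 to 467 CPM in cluster 37 of 3 grafts. In collecting duct-like cells it was at 259 and 189 CPM in naive cluster 23 and 75.2 to 141 CPM in cluster 28 of the grafts, and within cluster 31 it was at 265 and 169 (naive), 146 and 112 (rejecting) and 138 and 197 CPM (tolerized), where tolerized and naive kidneys overlapped. The part of cluster make-up in the differences of Ppargc1a was not tested. Against loop of Henle-like cells the change in proximal tubule-like cells differed by -0.82 and -0.85 for Etfa, by -0.99 and -0.92 for Eci2 and by -1.34 and -1.24 for Bdh1, of which Eci2 and Bdh1 passed the test in neither class alone. The Pdk4 differences against distal convoluted tubule-like and the Ppargc1a differences against collecting duct-like cells were called with each kidney left out. Each of the other differences named here lost its call with some kidney left out. The members called in rejecting and tolerized kidneys were 5 and 4 of 38 against loop of Henle-like cells (where 10.4% and 6.85% of all genes were called), 6 and 5 against distal convoluted tubule-like cells (8.44% and 7.01%) and 3 and 4 against collecting duct-like cells (9.25% and 7.83%).

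A wider list of 128 other genes of fatty acid oxidation, peroxisomes and PPAR targets, also chosen with earlier results of these data known, was examined in proximal tubule-like cells, where 118 were tested. In rejecting versus naive kidneys 14 rose and 51 fell, with a median of -0.48, where 22.5% of all genes tested rose and 18.7% fell. In tolerized versus naive kidneys 15 rose and 41 fell, with a median of -0.39, where 16.5% of all genes rose and 14.6% fell, and between tolerized and rejecting kidneys none passed. Genes of peroxisomal oxidation and import had 19 of 35 lower and 7 higher in rejecting and 14 lower and 7 higher in tolerized kidneys. Those of mitochondrial oxidation had 12 of 24 lower and 1 higher in rejecting and 10 lower and 2 higher in tolerized kidneys, and those of peroxisome biogenesis had 5 of 15 lower and 0 higher in both. Of the genes of ketone bodies and other PPAR targets, 9 of 16 were lower in both comparisons, with 0 higher in rejecting and 1 in tolerized kidneys. Genes of activation and entry of fatty acids had 5 of 17 higher and 4 lower in rejecting and 5 higher and 3 lower in tolerized kidneys, with medians of 0.24 and 0.26. Of 11 receptors and co-activators, 1 was higher and 2 lower in rejecting and 0 either way in tolerized kidneys. Lpl, the lipoprotein lipase that frees fatty acids from circulating triglyceride, was at 643 and 751 CPM (naive), 55.1 and 68.2 (rejecting) and 125 and 101 CPM (tolerized), a fall of 11.3-fold and 6.18-fold (adjusted p = 1.98e-05 and 7.2e-05). Nudt8, a hydrolase of coenzyme A in mitochondria, fell from 93.1 and 114 CPM to 9.11 and 6.16 in rejecting and 5.03 and 3.17 CPM in tolerized kidneys, and Cyp4a12b, another omega-hydroxylase, fell by -2.44 and -3.58 on the log2 scale. The largest increases in rejecting kidneys were those of Pparg, a receptor related to PPARα, which rested on 0 and 2 UMIs in naive against 13 and 6 UMIs in rejecting kidneys, of Xdh, the xanthine oxidoreductase (2.23, adjusted p = 0.000457), and of Acsl4, which activates arachidonic acid (1.75, adjusted p = 0.000461). In tolerized kidneys they were those of Xdh (1.99), of Abcd4 (1.85, adjusted p = 0.00674), a transporter of the ABCD family, and of Acsf2, an acyl-CoA synthetase (1.64, adjusted p = 0.00127).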

How the data were processed

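Single-cell RNA was measured in 6 kidneys. The authors deposited raw UMI counts per gene and barcode, made per the labels with Cell Ranger on mm10. The graft matrices list 31053 genes and the naive ones 28692; the 28208 shared were used. Barcodes were kept from 500 UMIs and 250 genes upwards and up to a mitochondrial share of 50% (49797 cells). The fewest UMIs in a kept cell were 1538 and 1342 in naive kidneys and 500 to 502 in grafts. Cells of lower depth than in naive kidneys thus came from grafts only. Scrublet scored doublets and all kept cells were clustered (2500 variable genes without pathway genes, 40 principal components, 20 neighbours, Leiden resolution 1.5, scanpy 1.11.5). The highest-scoring 0.8% per 1000 barcodes were then removed as doublets. A cluster was named where at least 3 markers of a class passed. Counts summed per kidney and class were tested with edgeR 4.0.16 (filterByExpr, TMM, quasi-likelihood) over all 6 kidneys, and with DESeq2 1.42.0 as an alternative; the fits were tested on simulated data. Intervals are t intervals from the fit. Depth was 34874702 to 96803926 UMIs per kidney, and intervals and floors cover counting error only where so stated. Members, lists, markers and tests were chosen with earlier results of these data known. All 38 members are described; values in each kidney are given for those past an adjusted p of 0.05 and for Ppara and Ppargc1a, and, where none passed, for the 8 largest differences among members without overlap; of other pathway genes, the 3 largest in each direction are named. Alternatives were scaling, filters, tool, doublets, resolution, S1/S2-like or S3-like clusters only, a replicate block and each kidney left out. The study names 2 experiments, but the labels do not say which kidneys belonged to which or whether equal replicate numbers mark a shared one.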

Additional observations from a re-analysis of the deposited data

Results flagged for a closer look

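Differences of a member's change between segments of the same kidneys were picked out where the difference itself passed an adjusted p of 0.05 in the edgeR fit with kidney as a block, which was added after the data had been seen. Each value is the log2 change against naive kidneys in proximal tubule-like cells minus that in the other segment.

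For Pdk4 the difference against distal convoluted tubule-like cells was 3.27 in rejecting and 3.07 in tolerized kidneys, and against collecting duct-like cells it was 3.52 and 3.45. The latter 2 lost their call without either naive kidney, and the 3.52 also without rejecting replicate 1. Pdk4 rested on 8 and 12 UMIs in rejecting and 10 and 31 UMIs in tolerized collecting duct-like cells. For Ppargc1a the difference was 0.97 and 0.90 against distal convoluted tubule-like cells, and 1.42 and 1.48 against collecting duct-like cells. The 0.97 and 0.90 lost their call without either naive kidney, and the 0.90 also without tolerized replicate 2.

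Members whose change was lower in proximal tubule-like than in loop of Henle-like cells were Etfa (-0.82 in rejecting and -0.85 in tolerized kidneys), Eci2 (-0.99 and -0.92) and Bdh1 (-1.34 and -1.24), and, in rejecting kidneys, Hadh (-0.64). Etfa lost its call without rejecting replicate 1 in rejecting and without naive replicate 1 in tolerized kidneys. In rejecting kidneys Eci2 and Bdh1 lost theirs without naive replicate 1 or rejecting replicate 2, and Eci2 without rejecting replicate 1 too. In tolerized kidneys Eci2 and Bdh1 lost theirs without either naive kidney. Ehhadh differed against collecting duct-like cells in rejecting kidneys (1.44), where it rested on 4 and 5 UMIs. The Hadh and Ehhadh differences both lost their call without any 1 of the 4 kidneys compared, with adjusted p of up to 0.163 and 0.464.

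For the others, carried-over proximal tubule RNA is given beside the values, since the proximal tubule markers stood in these 3 segments at 3.86% to 11.1% of their proximal tubule-like level in the naive kidneys and at 0.209% to 3.70% in the grafts, and its part in the differences was not tested. Acsm2 differed by 3.55 and 2.23 against loop of Henle-like cells, by 3.13 and 1.32 against distal convoluted tubule-like cells and, in tolerized kidneys, by 2.12 against collecting duct-like cells. Acsm1 differed by 3.34 and 1.64 and Cyp4a10 by 2.65 and 1.496 against distal convoluted tubule-like cells. Hao2 differed by 2.12 against distal convoluted tubule-like cells in rejecting kidneys and by 1.95 against collecting duct-like cells in tolerized kidneys. For Acsm2, Acsm1, Cyp4a10 and Hao2, the differences in tolerized kidneys all lost their call without naive replicate 2. Those against collecting duct-like cells lost it without naive replicate 1 too. Their differences in rejecting kidneys were called with each kidney left out.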

How the results depend on the processing

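Of 105 calls of single members, 30 were made under every alternative run for them. These 105 include the differences between segments, which were refitted only with each kidney left out. Of the 27 calls within proximal tubule-like cells, 9 were made under every alternative. Counts of members called moved by over 1.5 times as follows. With no filter on low counts they were 19 in tolerized versus naive and 2 in tolerized versus rejecting proximal tubule-like cells, 13, 12 and 2 in the 3 comparisons of loop of Henle-like cells, 12 in tolerized versus naive and 3 in tolerized versus rejecting distal convoluted tubule-like cells, and 1 in tolerized versus rejecting collecting duct-like cells. With DESeq2 they were 2 in tolerized versus rejecting proximal tubule-like cells, 4 and 1 in loop of Henle-like cells of tolerized versus naive and tolerized versus rejecting kidneys, and 5 in tolerized versus naive collecting duct-like cells. With S3-like clusters alone the sign turned for Acsm3 (1.14 and 1.22 in rejecting and tolerized versus naive kidneys), Acadm (1.38 and 1.25), Bdh1 (0.90 in rejecting kidneys), and Acsl1 and Acaa2 (-1.92 and -3.49 in tolerized kidneys), with 23 to 169 S3-like cells per graft, nearly all of cluster 35, against 2267 and 1671 per naive kidney, mostly of cluster 0. The summed level without mitochondrially encoded genes was 10720 and 11110 CPM (naive), 8579 and 9575 (rejecting) and 10977 and 9770 CPM (tolerized). Both rejecting kidneys were then below the other kidneys, unlike in the sum over all genes.

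With each kidney left out in turn, the counts in rejecting versus naive, tolerized versus naive and tolerized versus rejecting kidneys ran from 8 to 20, 7 to 15 and 0 to 0 in proximal tubule-like, from 4 to 6, 0 to 8 and 0 to 1 in loop of Henle-like, from 4 to 16, 2 to 12 and 0 to 2 in distal convoluted tubule-like, and from 3 to 9, 1 to 12 and 0 to 1 in collecting duct-like cells. The counts of members that differed between segments ran from 2 to 15 and 1 to 9 against loop of Henle-like, 5 to 12 and 1 to 9 against distal convoluted tubule-like, and 1 to 5 and 1 to 7 against collecting duct-like cells. The cause of these changes was not tested beyond the smaller number of kidneys.

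With a replicate block the counts were 15, 12 and 0 in proximal tubule-like, 7, 6 and 0 in loop of Henle-like, 15, 8 and 1 in distal convoluted tubule-like, and 8, 8 and 0 in collecting duct-like cells, all within 1.5 times of those without it. It ended the calls of Acsm2 (-0.62, adjusted p = 0.0576) and Acadm (-0.54, 0.0559) in rejecting and Decr1 (-0.59, 0.0641) in tolerized proximal tubule-like cells, of Eci1 (0.72, 0.0509, and 0.71, 0.0636) and, in tolerized kidneys, Slc25a20 (-0.88, 0.0546) in loop of Henle-like cells, and of Ppargc1a in tolerized collecting duct-like cells (-0.77, 0.0674). Correlations of same-numbered kidneys' deviations ran from -0.092 to 0.136, so the numbers were not taken to pair the kidneys. Leaving out clusters with markers of injury was not run, since no proximal tubule-like cluster had 3 of them.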
